A study of Rattus norvegicus with 6 samples.

Results

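The genes described here encode the kainate receptor subunits GluK1 to GluK5 (Grik1, Grik2, Grik3, Grik4 and Grik5) and the delta receptor subunit GluD1 (Grid1), 6 genes of the ionotropic glutamate receptor family. They were read by probe sets, groups of short oligonucleotides that each stand for a transcript, and every probe set whose annotation names exactly one of these genes was taken. This rule used no measured value and found 7 probe sets of 8740, with 2 for Grik4 and 1 for each of the other genes. RNA was taken from medial prefrontal cortex (mPFC) in male rats of the Sprague-Dawley strain, killed 90 min after a single intraperitoneal injection. The LSD group had received lysergic acid diethylamide, a hallucinogenic agonist of serotonin receptors, as (+)-LSD tartrate at 1.0 mg/kg, and the saline group had received the vehicle injection. The labels name no engineered allele and give no age, and each group was read on 3 arrays.

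Kainate receptors are tetramers that open a cation channel when glutamate binds. GluK1, GluK2 and GluK3 bind glutamate with lower affinity and can form channels by themselves, whereas GluK4 and GluK5 bind with high affinity and need a low-affinity subunit beside them to work. In cortex and hippocampus these receptors act on both sides of the synapse: presynaptically they adjust the release of glutamate and GABA, and postsynaptically they carry slow currents and dampen afterhyperpolarisation. GluD1 has the fold of a glutamate receptor but is not known to be gated by glutamate in the usual way. It bridges the synaptic cleft by binding cerebellins, which in turn hold presynaptic neurexins.

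No kainate or delta receptor transcript passed the test after LSD, and the 95% intervals of all 7 differences lay within a 1.5-fold change in either direction. The largest difference was that of Grik1, which was 1.16-fold lower in the LSD arrays, followed by one of the Grik4 probe sets at 1.13-fold lower. Grik5 and Grid1 were both 1.07-fold lower, and Grik2, Grik3 and the other Grik4 probe set differed by at most 1.02-fold. In limma, 0 of the 7 passed a Benjamini-Hochberg adjusted p of 0.05 over all probe sets, against 0.0686% of all probe sets. The exact rank sum test called 0 as well, but with 3 against 3 arrays its p cannot fall below 0.1, so it could call none. An unadjusted limma p below 0.05 was found for 1 of the 7, against 3.92% of all probe sets. The LSD and saline arrays did not overlap, with LSD lower, for 2 of the 7 (Grik1 and Grik5), against 3.79% of all probe sets. Separation with LSD higher was found for 0 of the 7, against 6.58% of all probe sets. In bulk tissue a lower value from fewer cells of a type and one from less RNA per cell cannot be told apart.

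The signs leaned to lower levels. Of the 7 probe sets 5 were nominally lower and 2 nominally higher, with a median difference of -0.09 log2 units, while over all 8740 probe sets 51.4% were nominally higher and the median was 0.0045. The size of the differences was ordinary, with a median absolute value of 0.09 log2 units in the members and 0.08 over all probe sets.

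**Figure D1:**
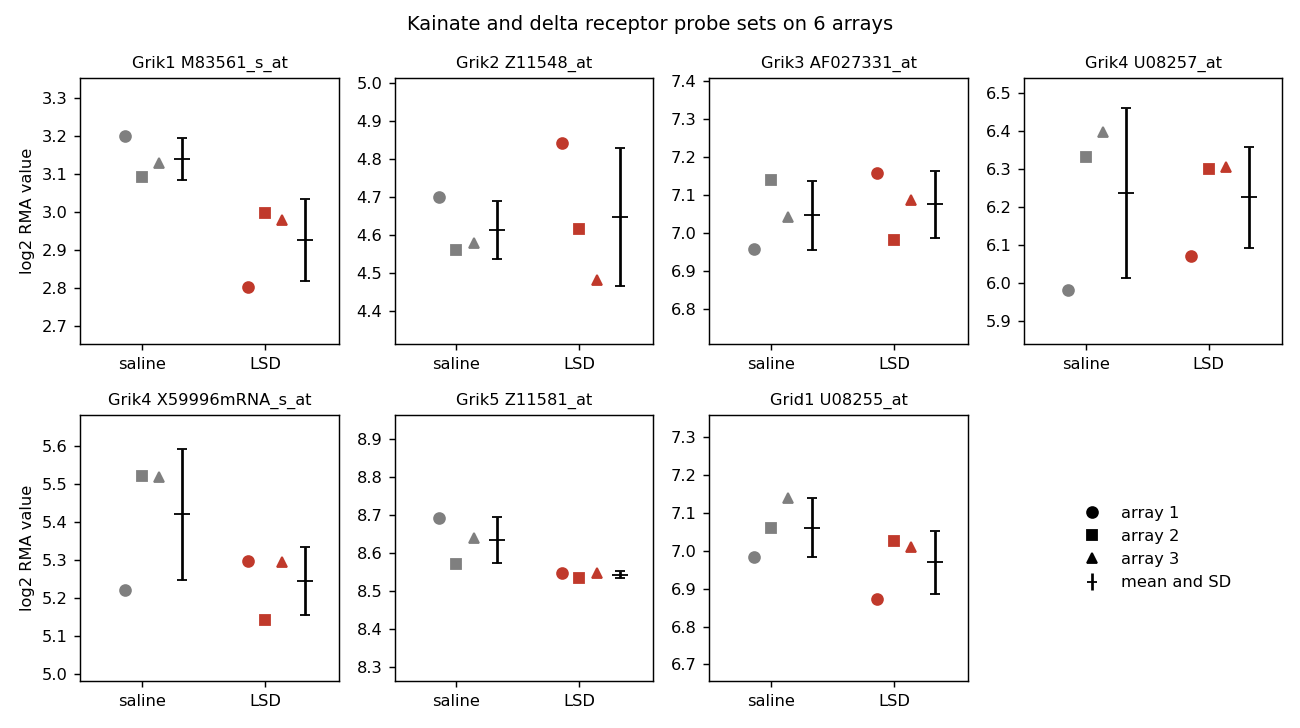
Log2 RMA values (vertical axes, each spanning 0.7 log2 units) of the 7 probe sets, where each point is an array (grey for saline, red for LSD) and the bar beside the points gives mean and SD (n = 3). The groups separate for Grik1 and Grik5 and overlap for the rest; array numbers name arrays and do not pair them.

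Some properties of the arrays bear on these values. All 6 arrays correlated between 0.9855 and 0.9955 over 4736 genes. Saline 1 differed most from the others, with 78 probe sets that deviated by over 1 log2 unit from the average of the remaining arrays, against 2 to 21 elsewhere, and results without it are given below. According to the labels the tissue of 4 animals per group was combined for extraction, but the study's text takes each array as an independent pool from a pair of rats. It is thus not settled whether the 3 arrays of a group are separate animals, and p-values may measure technical spread only. A second line in the sample descriptions names the opposite treatment from the titles and treatment labels. Groups here follow the titles and treatment labels, and the signs of all differences would be opposite under the second lines. Of the excitatory neuron markers, Nrgn (10.99 log2 units in saline) and Cck (10.43) were bright, while Slc17a7 (4.83) and Camk2a (5.67) were not. Of the inhibitory neuron markers, Sst (9.50), Gad1 (8.09), Npy (7.83), Slc32a1 (7.74), Pvalb (7.36) and Calb2 (6.68) were above the array median. Gad2 (4.80) and Vip (4.41) were below it. Mbp of oligodendrocytes (11.22) was bright too.

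Grik1 encodes GluK1, the subunit targeted by most selective kainate receptor ligands and found in many cortical interneurons. Its probe set M83561_s_at read 3.20, 3.09 and 3.13 log2 units on the saline arrays and 2.80, 2.997 and 2.98 on the LSD arrays. All LSD arrays lay below all saline arrays, with a gap of 0.09 log2 units between the nearest pair, and LSD 1 was the lowest. The mean went from 3.14 ± 0.055 to 2.93 ± 0.11 (SD, n = 3), a difference of -0.21 ± 0.09 log2 units (SE) with a 95% interval from -0.42 to -0.0075. The unadjusted limma p was 0.0439 and the adjusted p was 0.981, so the difference did not pass. At the level of genes, with the brightest probe set of each gene, the adjusted limma p was 0.971 over 4736 genes, of which 0.0211% passed.

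The Grik1 signal was dim. Relative to the array median of 5.43 to 5.45 its level was -2.41 log2 units, a range in which RMA compresses fold changes, and no detection calls were used. The probe set is also of the _s_at type, which can match several transcripts. The sign of the difference held with each array left out, between -0.25 without LSD 2 and -0.15 without LSD 1. In the fit over all probe sets the unadjusted limma p was then above 0.05 each time, from 0.0568 to 0.117. In the fit over genes it was 0.0495 without LSD 2 and above 0.05 without any other array. Grik1 was below the level of the filter on dim probe sets and gave no value there.

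Grik5 encodes GluK5, the high-affinity subunit that joins GluK2 in most kainate receptors of the forebrain. The probe set Z11581_at read 8.69, 8.57 and 8.64 log2 units on the saline arrays and 8.55, 8.53 and 8.55 in LSD arrays. The LSD arrays were all below the saline arrays, although the nearest values were only 0.02 log2 units apart. The LSD arrays were almost equal, with a mean of 8.54 ± 0.0083 against 8.63 ± 0.061 in saline (SD, n = 3). The difference was -0.09 ± 0.08 log2 units (SE, 95% interval -0.27 to 0.09), with an adjusted limma p of 0.981. This was the steadiest of the 7, and 3.19% of all probe sets had a smaller spread within groups. It was also the brightest, 3.15 log2 units above the array median.

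The start regions of these 2 genes are shown because theirs were the only 2 probe sets in which the groups separated. Each sequence is the 250 bases before the annotated start, written 5′ to 3′ on the minus strand of the GRCr8 assembly as RefSeq annotates it. Capitals mark GGGCGG on either strand, the core of the GC box bound by Sp family factors.
Grik1, chr11:41056504-41056753: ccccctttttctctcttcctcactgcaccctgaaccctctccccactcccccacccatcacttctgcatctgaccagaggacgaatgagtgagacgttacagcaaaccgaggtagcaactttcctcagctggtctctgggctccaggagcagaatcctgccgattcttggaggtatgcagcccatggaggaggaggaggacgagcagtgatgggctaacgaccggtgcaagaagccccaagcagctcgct
Grik5, chr1:89794910-89795159: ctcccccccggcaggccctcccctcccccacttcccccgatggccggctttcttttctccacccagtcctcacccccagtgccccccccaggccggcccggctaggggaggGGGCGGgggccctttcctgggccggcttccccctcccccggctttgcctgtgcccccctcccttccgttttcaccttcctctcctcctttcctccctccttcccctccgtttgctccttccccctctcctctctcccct
The windows were searched on both strands for GGGCGG, the cAMP response element half-site TGACG and the TATA box TATAAA. No member window held matches to different motifs. Grik5 held 1 GC box and Grik1 none of the motifs, while 30.5% of 33469 such windows held a GC box, 18.2% the half-site and 12.9% the TATA box. Among the other members, Grik3 held 5 GC boxes and Grik2 held 1 half-site. Grik4 held none of the motifs, and Grid1 had no window in the table. GC content was 57.6% for Grik1, 70.8% for Grik5, 81.6% for Grik3, 49.6% for Grik2 and 43.2% for Grik4, with a median of 51.2% over all windows. These are matches of letters, and nothing in the arrays measures binding or promoter use.

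Grik4 encodes GluK4, the other high-affinity subunit, known for its high level in hippocampal CA3 neurons. It was the only gene with 2 probe sets, and neither passed. X59996mRNA_s_at read 5.22, 5.52 and 5.52 log2 units on the saline arrays and 5.30, 5.14 and 5.30 on the LSD arrays. All LSD arrays were below Saline 2 and Saline 3, and Saline 1 lay among them. The difference was -0.18 ± 0.11 log2 units (SE, 95% interval -0.43 to 0.08), with an adjusted limma p of 0.981.

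The second Grik4 probe set gave a smaller difference, although its LSD arrays were also below Saline 2 and Saline 3. U08257_at read 5.98, 6.33 and 6.40 log2 units on the saline arrays and 6.07, 6.30 and 6.30 on the LSD arrays, a difference of -0.01 ± 0.13 (SE, 95% interval -0.31 to 0.29, adjusted limma p of 0.995). Here Saline 1 and LSD 1 were low and the other 4 arrays lay close together. The within-array difference between both probe sets was 0.82 ± 0.060 log2 units (SD, n = 3) in saline and 0.98 ± 0.19 (SD, n = 3) after LSD. The change of 0.17 between groups was within the spread of the LSD arrays (two-sided exact permutation p = 0.3 for 1 pair, where 20 assignments allow no p below 0.1). The 2 probe sets correlated at 0.52 over the 6 arrays, with no p since the arrays hold both groups.

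Grik2 and Grik3 encode GluK2 and GluK3, low-affinity subunits of which GluK2 is the main partner of GluK5. The Grik2 probe set Z11548_at read 4.70, 4.56 and 4.58 log2 units on the saline arrays and 4.84, 4.62 and 4.48 on the LSD arrays. The LSD arrays spanned the saline arrays on both sides, with LSD 1 the highest and LSD 3 the lowest of the 6. The difference was 0.03 ± 0.11 log2 units (SE, 95% interval -0.22 to 0.29, adjusted limma p of 0.990), and it turned to -0.06 without LSD 1. The Grik3 probe set AF027331_at read 6.96, 7.14 and 7.04 log2 units on the saline arrays and 7.16, 6.98 and 7.09 on the LSD arrays. Both groups covered nearly the same range, with a difference of 0.03 ± 0.09 (SE, 95% interval -0.18 to 0.24, adjusted limma p of 0.990), and this turned to -0.02 without Saline 1.

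The Grid1 probe set U08255_at read 6.98, 7.06 and 7.14 log2 units on the saline arrays and 6.87, 7.02 and 7.01 on the LSD arrays. The groups overlapped through Saline 1, which was below LSD 2 and LSD 3. The mean was 7.06 ± 0.078 (SD, n = 3) in saline and 6.97 ± 0.083 (SD, n = 3) after LSD, a difference of -0.09 ± 0.09 log2 units (SE, 95% interval -0.29 to 0.11) with an adjusted limma p of 0.981.

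**Figure D2:**
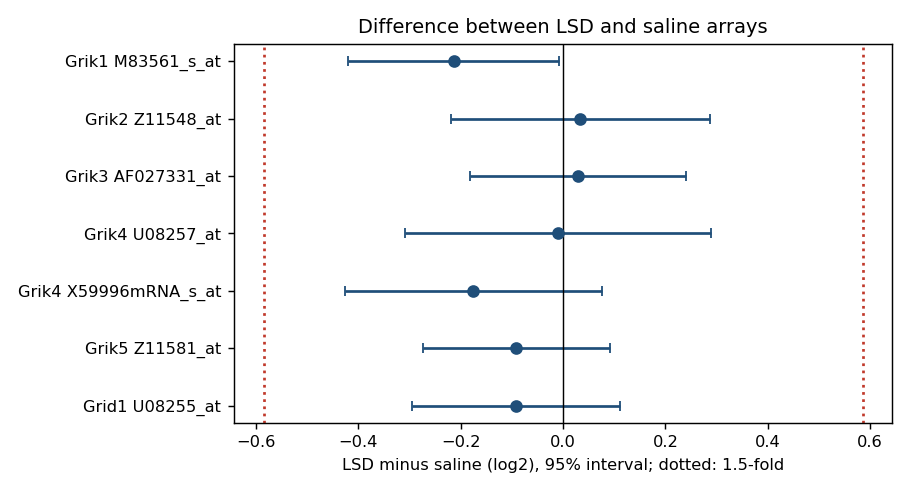
Difference between LSD and saline arrays in log2 units (horizontal axis) for the 7 probe sets, where the bar through each estimate is the 95% interval of the limma fit (n = 3 per group). All intervals lie inside the dotted lines at a 1.5-fold change, and that of Grik1 ends just below 0.

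The intervals bound the differences between these arrays, and as they rest on the same spread as the p-values they may be too narrow for animals. The highest upper bound was 1.22-fold, for Grik4 U08257_at and for Grik2. The lowest lower bound allowed a 1.34-fold reduction, for Grik4 X59996mRNA_s_at and for Grik1. These bounds are on the RMA scale, and 3 of the 7 probe sets (Grik1, Grik2 and Grik4 X59996mRNA_s_at) lay below the array median, where true folds can be larger. The spread within groups was at most 0.18 log2 units, for Grik4 U08257_at, and the median over all probe sets was 0.13.

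The members did not vary as 1 group across the arrays. Over the 21 pairs of member probe sets the correlation across the 6 arrays ran from -0.76 to 0.79 with a median of 0.11, and 13 pairs were positive. The most alike pair was Grik1 and Grik5, the genes whose groups separated. Grik2 ran against the Grik4 probe set U08257_at (-0.76) and against Grid1 (-0.74). These values share arrays and the group difference, and are given as a description with no p. LSD 1 held the lowest values of Grik1 and Grid1 and the highest of Grik2 and Grik3.

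**Figure D3:**
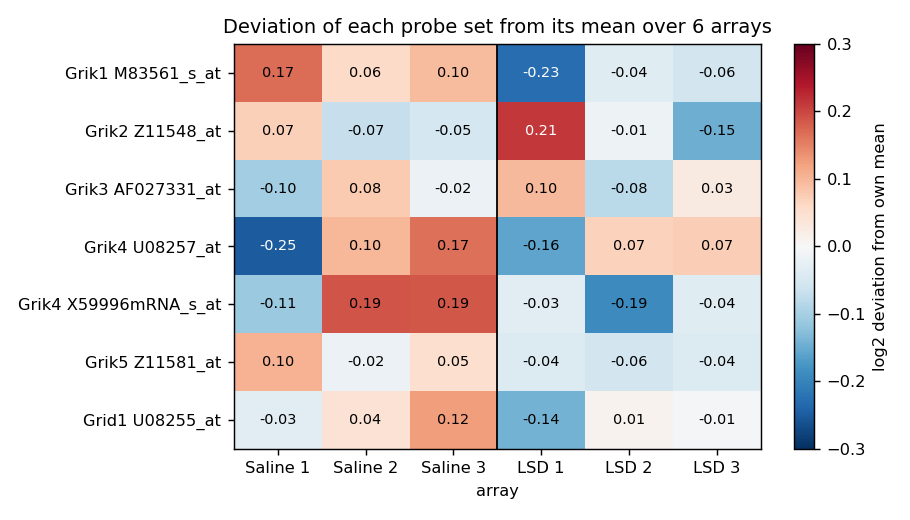
Deviation of each probe set from its own mean over the 6 arrays, in log2 units (colour and printed value), with saline arrays left and LSD arrays right of the line. Grik1 is positive on all saline and negative on all LSD arrays, and Grik4 U08257_at is lowest on Saline 1 (-0.25).

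Without Saline 1 more members separated with LSD lower, as did more of all probe sets, and no member passed. The groups (2 saline and 3 LSD arrays) then did not overlap, with LSD lower, for 5 of the 7 probe sets, namely Grik1, Grik5, Grid1 and both of Grik4. The share over all probe sets rose as well, from 3.79% to 14.8% with LSD lower and from 6.58% to 13.7% with LSD higher. With LSD higher, 0 members separated. Grik4 X59996mRNA_s_at differed by -0.28 ± 0.09 log2 units (SE), with an unadjusted limma p of 0.0167 and an adjusted p of 0.527. It was the 1 member with an unadjusted p below 0.05, against 9.22% of all probe sets. The adjusted threshold was passed by 0 members and by 0.0343% of all probe sets. Grik1 differed by -0.18 and no longer had an unadjusted p below 0.05 (0.0886). The other Grik4 probe set differed by -0.14, Grid1 by -0.13 and Grik5 by -0.06. Grik1 and Grik5 thus differed less than with all 6 arrays (-0.21 and -0.09). Grik3 differed by -0.02, and Grik2 was nominally higher by 0.08.

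**Figure D4:**
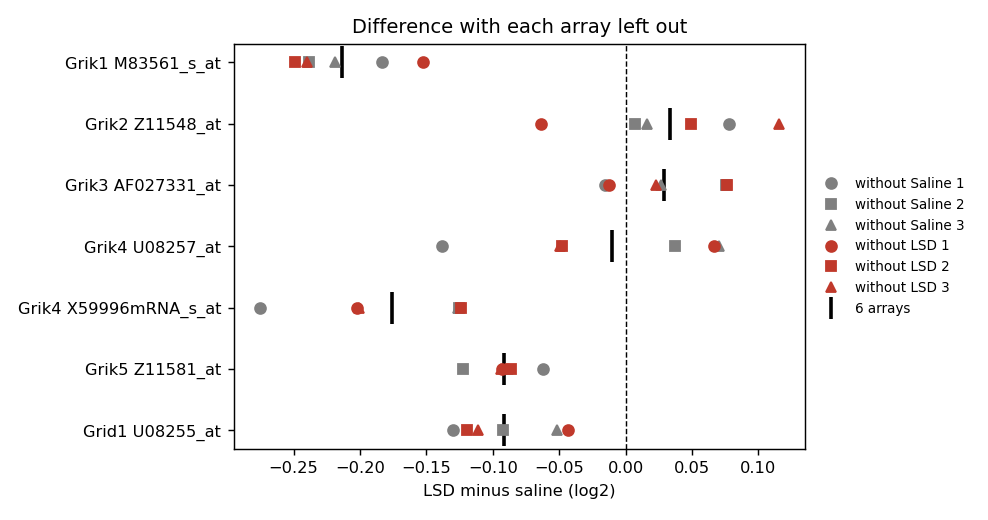
Difference between LSD and saline in log2 units (horizontal axis) for each probe set, with all 6 arrays (black bar) and with each array left out (symbols). Grik1, Grik5, Grid1 and Grik4 X59996mRNA_s_at stay below 0 throughout, and Grik2, Grik3 and Grik4 U08257_at change sign.

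Markers of other cells and regions were read on the same arrays. Striatal markers were nominally lower on the same arrays as Grik1 and Grik5, all 7 of those measured and 5 without overlap. Their mean level ran from 6.11 to 6.15 log2 units in saline and from 5.84 to 5.94 after LSD, with Penk at 6.50 and 6.03. All 4 choroid plexus markers were nominally lower as well (6.32 to 6.41 against 6.05 to 6.21), 1 without overlap, which was Ttr (10.42 and 9.93). Enpp2 differed by -0.41 log2 units, but Kl by only -0.08 and Kcnj13 by only -0.04. General neuronal markers went the other way, with all 4 nominally higher and without overlap (8.16 to 8.26 against 8.46 to 8.50). Over all genes the groups did not overlap in 3.34% with LSD lower and in 6.97% with LSD higher. The mean levels of excitatory, inhibitory, astrocyte, oligodendrocyte, oligodendrocyte precursor, microglia and endothelial markers overlapped between the groups. The astrocyte mean joined opposite signs, with Aqp4 at 0.41 log2 units, S100b at -0.24 and Slc1a3 at -0.25. These 3 of the 6 astrocyte markers had an unadjusted limma p below 0.05, against 3.63% of all genes. No marker passed in limma over all genes, and their part in the values of Grik1 and Grik5 was not tested.

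The wider set of glutamate receptor genes and receptor partners likewise held 0 members past the threshold at the level of genes, with the brightest probe set standing for each gene. When each gene was read by the average over its probe sets, or by the one that varied most, alternatives chosen after the data were seen, 1 of the 30 passed, which was Gria3 (adjusted limma p of 0.0178 and 0.0122). Of 51 listed genes 30 were measured, 16 nominally higher and 14 lower, with a median of 0.02 log2 units against 0.0056 over all genes. An unadjusted limma p below 0.05 was found for 4 of the 30, against 3.63% of all genes. The groups did not overlap in 5 with LSD higher and 2 with LSD lower, against 6.97% and 3.34% of all genes.

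Among AMPA and NMDA receptor subunits, which carry fast and calcium-permeable glutamate currents, 5 of 10 were nominally higher. Gria3, the gene of the AMPA subunit GluA3, differed by 0.57 ± 0.10 log2 units (SE, adjusted limma p of 0.319), with no overlap between groups. Its other probe set X54656_at, at 1.06 log2 units, was among the 6 of 8740 probe sets that passed (adjusted limma p of 0.0134). The NMDA receptor subunit genes Grin2c (-0.16) and Grin2d (-0.28) had the next lowest p at the level of genes and did not pass. Their other probe sets gave -0.04 for Grin2c and, with the opposite sign and no overlap, 0.19 for Grin2d (unadjusted limma p of 0.0453). The AMPA subunit gene Gria1 differed by 0.10 with its brightest probe set. Its other probe sets differed by 0.19 and 0.37 (unadjusted limma p of 0.0705 and 0.00279). Every Gria1 probe set had no overlap with LSD higher, and none passed.

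Proteins that bind or modify kainate receptors had 7 of 11 members nominally higher. The auxiliary subunits Neto1 and Neto2, which slow the gating of kainate receptors, were not measured. Dlg1, which encodes the scaffold protein SAP97, differed by 0.39 ± 0.10 log2 units (SE, adjusted limma p of 0.951) with no overlap between groups, while 2 further Dlg1 probe sets, both dimmer, gave 0.11 and 0.14. Snap25, a membrane fusion protein that is reported to bind GluK5, differed by 0.13 with no overlap, and its other probe sets by -0.06 to 0.13. The scaffold gene Dlg3 differed by 0.24. Adarb1, whose product ADAR2 edits kainate receptor transcripts, differed by 0.07. None of these passed.

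Of the partners of delta receptors, 2 of 4 measured were nominally higher and the cerebellins were not measured. The neurexin gene Nrxn3 differed by 0.22 ± 0.09 log2 units (SE, adjusted limma p of 0.971) with no overlap between groups, and the scaffold gene Shank1 by -0.19. The brightest Nrxn2 probe set differed by -0.08 and the other by 0.28 (unadjusted limma p of 0.0716), so its sign depended on the probe set. Of the glutamate transporters 2 of 5 were nominally higher. The astrocyte transporter gene Slc1a3 differed by -0.25 ± 0.10 (SE, adjusted limma p of 0.971) with no overlap, and its other probe sets by -0.18 to -0.01. Slc1a2 differed by 0.15, its other probe sets by 0.03 to 0.34, and the vesicular transporter gene Slc17a7 by -0.16.

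**Figure D5:**
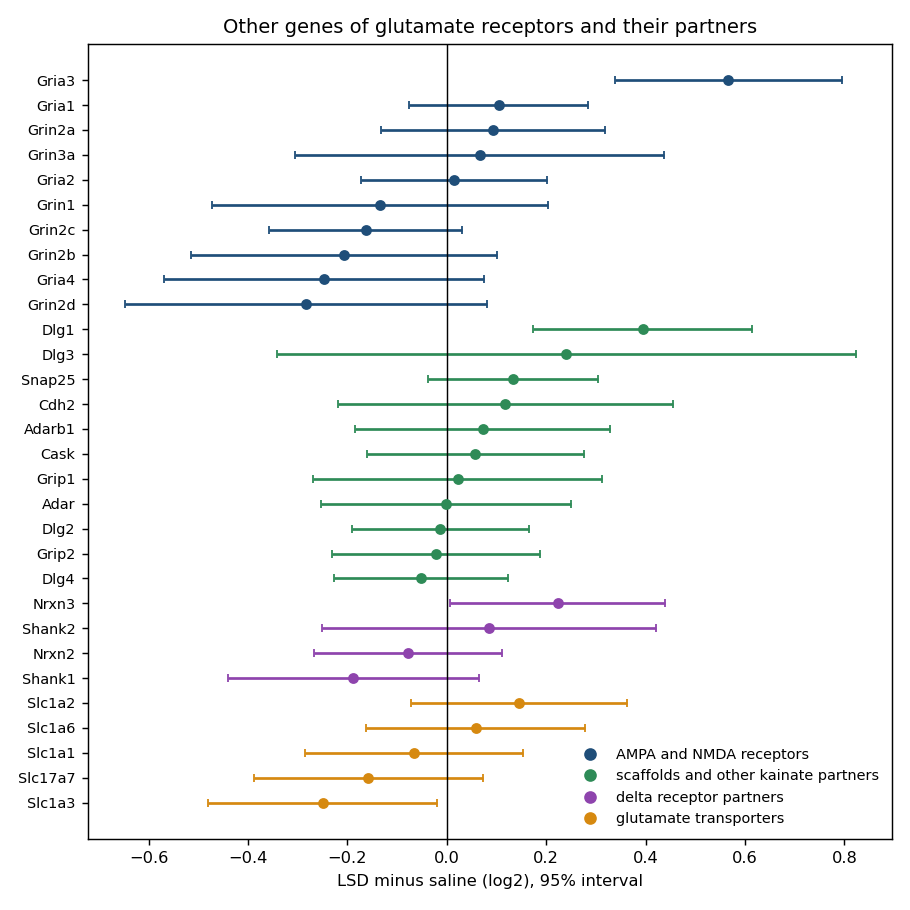
Difference between LSD and saline arrays in log2 units (horizontal axis) for 30 genes of other glutamate receptors and of receptor partners, with bars for the 95% interval (n = 3 per group) and colours for the 4 groups. Gria3 and Dlg1 lie farthest above 0, and most intervals include 0.

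The probe sets of other genes that ran most like each member over the 6 arrays had correlations of 0.9797 to 0.9973. Over so few arrays high correlations were not rare, and between 8 (Grik5) and 59 (Grik4) of about 7005 single-gene probe sets exceeded 0.95. Grik1 ran most like Cps1 (0.9953) and Dnah1 (0.9889), Grik2 like Galnt16 (0.986) and Fgf17 (0.9858), and Grik3 like Fgf7 (0.9973) and Ppard (0.9916). The brighter Grik4 probe set ran most like a probe set of the neuronal glutamate transporter gene Slc1a1 (0.9909) and Pik3r2 (0.9904). Grik5 ran most like a probe set of the scaffold gene Dlg2 (0.9805) and C4h2orf68 (0.9797). Grid1 ran most like a probe set of the myelin gene Mag (0.986), not its brightest, and P3h4 (0.9847). None of these probe sets passed in limma, with differences between -0.26 and 0.05 log2 units.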

How the data were processed

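The deposited values are log2 expression values that the authors made by RMA in affy (version not given in the sources used here), which corrects background, normalises arrays by quantiles and summarises the probes of each set. A shift common to most transcripts is therefore not visible. Of 8799 probe sets 59 controls were left out. The platform annotation gave 7006 of the 8740 tested a single symbol, and the 6 members matched RefSeq genes of GRCr8 by gene ID. RefSeq windows of that assembly supplied the printed sequences, and the array files name no build.

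The groups were set against each other by lmFit and eBayes of limma 3.58.1 under R 4.3.3 (without covariates, two-sided, Benjamini-Hochberg over all probe sets or all 4736 genes, threshold 0.05), with the probe set of highest mean standing for a gene, as in the study's methods. The script was tested on simulated data. Errors of differences are standard errors of that fit. Arrays have no read depth, and their number limits the precision. Members, lists and tests were chosen with earlier results of these data known. Named were all members, partner genes past the threshold and the 3 of lowest p per partner group, the 2 probe sets most alike in pattern per member, and defining markers, while further genes were named after their values were seen. Alternatives were 3 rescalings, a filter on dim probe sets, a trend with a robust prior, array weights, a replicate block, an exact rank sum test, leaving out each array, and other ways to combine probe sets, which for partner genes were added after the data were seen.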

Additional observations from a re-analysis of the deposited data

How the results depend on the processing

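No member passed under any of the 14 alternatives run on probe sets, in which the lowest adjusted p of a member was 0.145 (Grik4 X59996mRNA_s_at with array weights, -0.31 log2 units). The exact rank sum test among these could not pass, since its p cannot fall below 0.1. Of the 30 partner genes 0 passed under other scalings, fits or with 1 array left out, and the rank sum test was not run on them. Above the median level only 19 of them were tested and 0 passed. Gria3 came closest in these settings, with an adjusted limma p of 0.0571 above the median level and 0.0628 with array weights. Under both other ways to combine probe sets, added after seeing the data, 1 passed (Gria3, at 0.81 log2 units with the mean and 1.06 with the most variable probe set), and Nrxn2 turned to 0.099 and 0.28. Of 95 member values 88 kept their sign. Grik3 turned to -0.045 with array weights, -0.016 without Saline 1 and -0.01 without LSD 1, Grik2 to -0.064 without LSD 1, and Grik4 U08257_at, which also stands for the gene, to 0.04 without Saline 2 and 0.070 without Saline 3 and 0.07 without LSD 1. With 1 array left out, Grik3 ran from -0.016 to 0.076, Grik2 from -0.064 to 0.12 and Grik4 U08257_at from -0.14 to 0.070. The cause was not tested. The number of members whose groups did not overlap ran from 2 to 5 with 1 array left out. It was 1 of 4 above the median level, where Grik1 and 2 further dim probe sets were not tested. The 5 were found without Saline 1, where separation was also more common over all probe sets. That share rose from 3.79% to 14.8% with LSD lower and from 6.58% to 13.7% with LSD higher. Shares for the other settings are not given, so the change in these counts cannot be assigned to the members. The difference between the Grik4 probe sets ran from 0.08 to 0.27 log2 units with 1 array left out. The exact permutation p ran from 0.1 to 0.6, but it cannot fall below 0.1 with so few arrays, so none of these could pass.

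Same-numbered arrays did not deviate together (correlations of -0.018, -0.23 and 0.17), so the numbers were not taken as pairs. With the replicate number as a block 0 members passed, the lowest adjusted p being 0.997, and the count of calls was 0 with and without it.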
